A study of Saccharomyces cerevisiae with 78 samples.

Results

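The genes described here encode the protein parts of the spliceosome, the machine that removes introns from nuclear pre-mRNA. They were chosen by symbol alone: the Sm and Lsm genes (*SMB1*, *SMD1* to *SMD3*, *SME1*, *SMX2*, *SMX3* and *LSM1* to *LSM8*) and the genes whose symbols mark splicing factors (*PRP*, *SNU*, *BRR*, *CWC*, *CEF*, *SYF* and related names). The rule found 78 of the 982 genes named on the array, 15 of them Sm or Lsm genes and 63 in the rest. All 78 had an exon feature, out of 941 such genes, and 4 of the 78 (*LSM2*, *LSM7*, *MUD1* and *SMD2*) had an intron feature, out of 228. The label fits the symbols with 2 exceptions: *BRR6* encodes a nuclear envelope protein, and *LSM1* marks the ring that acts on mRNA in the cytoplasm.

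The study deleted the intron of 1 ribosomal protein gene at a time in *Saccharomyces cerevisiae* and hybridised the RNA of each mutant with wild type RNA to splicing arrays. The 17 haploid strains were *rpl16a*Δi, *rpl23a*Δi, *rpl24a*Δi, *rpl29*Δi, *rpl2a*Δi, *rpl2b*Δi, *rpl31a*Δi, *rpl34a*Δi, *rpl35a*Δi, *rpl40b*Δi, *rps14a*Δi, *rps14b*Δi, *rps21b*Δi, *rps23a*Δi, *rps8a*Δi, *rps9a*Δi and *rps9b*Δi, where Δi stands for the exact loss of that gene's intron. Mutant and wild type, both from the same parent diploid, grew side by side in rich glucose medium at 30 °C to mid-log phase, and no other treatment was given. There were 39 replicates on 78 arrays, each replicate with 1 array for either dye orientation. Strains *rpl24a*Δi, *rpl29*Δi, *rpl31a*Δi and *rps23a*Δi had 1 replicate, *rpl16a*Δi, *rpl2a*Δi, *rps21b*Δi and *rps9a*Δi had 2, and the other 9 strains had 3. Whether replicates came from separate cultures or isolates is not stated, so the tests measure only the spread between these samples, which may be technical. Each value is the log2 of mutant RNA over wild type RNA, positive where the mutant held more.

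The spliceosome is built on small nuclear RNAs, each packed with proteins into a snRNP. A ring of Sm proteins sits on the U1, U2, U4 and U5 RNAs, and a ring of Lsm2 to Lsm8 holds the end of the U6 RNA. A sister ring with Lsm1 in place of Lsm8 works in cytoplasmic mRNA decay. U1 proteins recognise the 5′ splice site, the branchpoint binding protein and U2 proteins mark the branchpoint, and the U4/U6.U5 tri-snRNP then joins. The Prp19 complex (NTC) and its partners stabilise the active form, and ATPases of the DEAD and DEAH families drive each rearrangement. In budding yeast a large share of all splicing acts on transcripts of ribosomal protein genes, most of which have an intron.

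The deleted intron was below 0 in both dye orientations in 17 of 17 strains, with strain means from -3.55 in *rpl35a*Δi to -0.61 in *rpl31a*Δi. These introns were also the examples by which intron features were told from exon features, so their sign is not a separate check. Between 83 and 3552 of the 9216 spots of an array had no value, most in *rps9a*Δi (2588 to 3552). Of the spots of the 78 genes 17.34% were missing, against 14.88% of all spots. *LSM8* had no exon value in *rps9a*Δi. The gene *MFA2*, which encodes the a-factor pheromone of **a** cells, was below -3 in every replicate of 7 strains, above -1 in every replicate of 6 and mixed among the replicates of 4. Because whole cultures were measured, fewer cells with a transcript and less of it per cell cannot be told apart.

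Most spliceosome protein genes were measured close to wild type in most strains. Of 1325 tests of a gene in a strain, 14 passed (limma, adjusted p under 0.05), 12 higher and 2 lower, which is 1.06% beside the 1.13% of all 15979 tests on the array (0.906% higher and 0.151% lower beside 0.62% and 0.507%). At an unadjusted p under 0.05 there were 96 of the 1325, beside 1622 of all 15979. When the spread came from each strain's own replicates alone, 0 passed. Only 6 of the 78 genes had a strain mean beyond 0.5 in either direction, against 131 of all 941. The SD of a gene's 17 strain means had a median of 0.103 among the spliceosome genes and 0.121 among all genes, and the median SD between replicates was 0.132 against 0.153. The calls fell in 3 strains, 12 of them in *rpl40b*Δi. One gene each passed in *rpl34a*Δi and *rps9b*Δi. In each of the other 14 strains 0 of the members passed in the limma fit, beside 0.357% of all genes over those strains, with 1 (*rps9a*Δi) to 11 (*rps14b*Δi) at an unadjusted p under 0.05 except in *rpl16a*Δi, which had 0. Over those 14 strains that made 67 of 1091 tests of members, beside 1182 of 13156 tests of all genes.

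**Figure D1:**
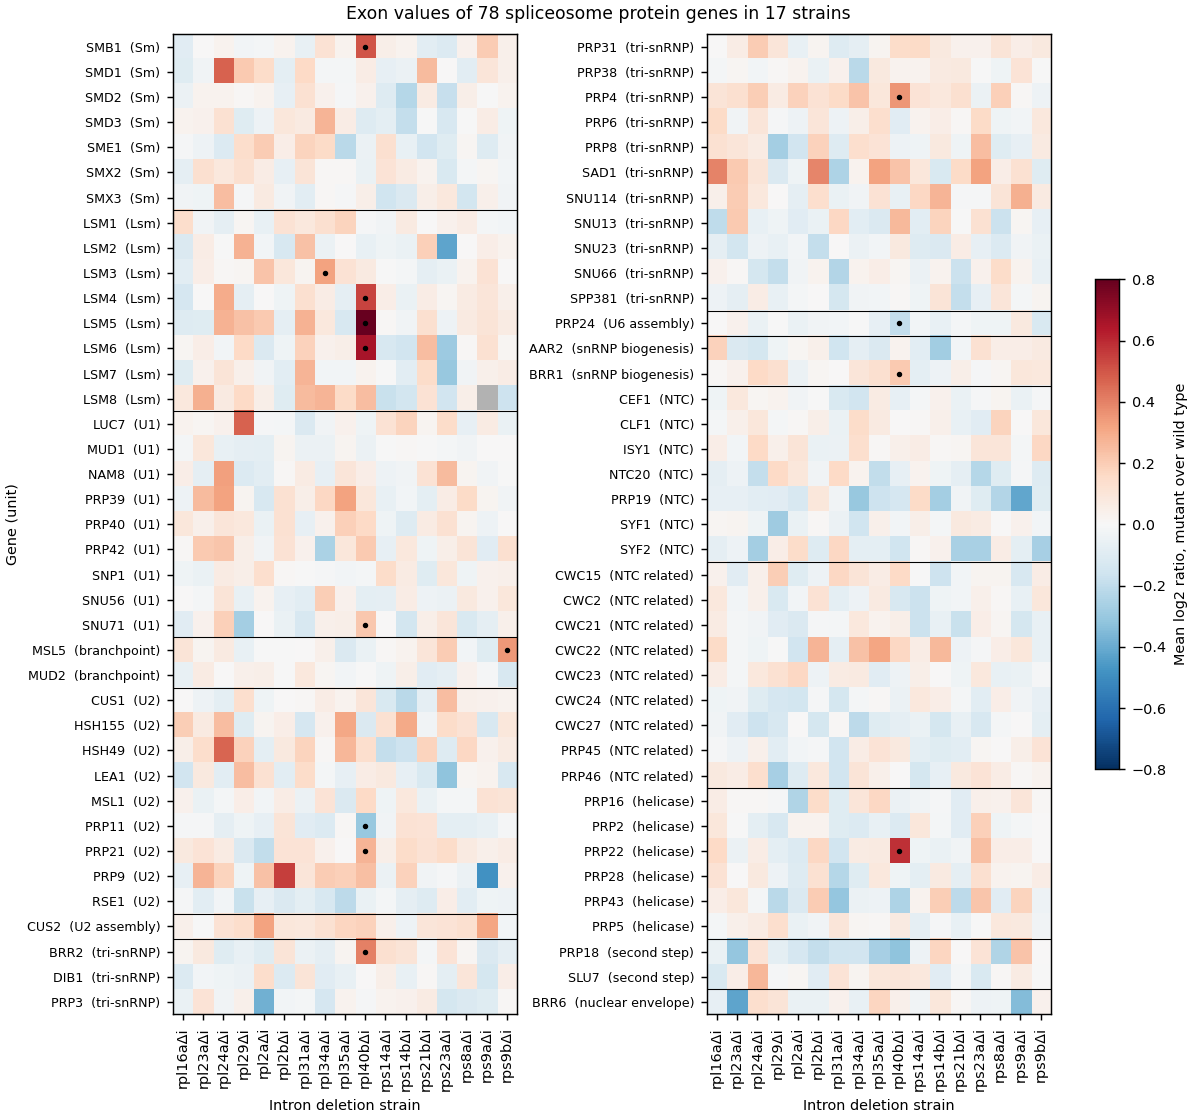
Heat map of the mean exon log2 ratio, mutant over wild type, of each of the 78 genes (rows, with the unit of the spliceosome) in each of the 17 strains (columns). The column of *rpl40b*Δi holds the strongest colours, with *LSM5* at 0.82, *LSM6* at 0.66 and *PRP22* at 0.58.

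In *rpl40b*Δi, which lacks the intron of 1 of the 2 genes for the ubiquitin fusion protein of the large subunit, 12 of 78 spliceosome genes passed, 10 higher and 2 lower. Those 12 are 15.4% of the members, beside 11.2% of all genes called in that strain, and the shares were 12.8% higher and 2.56% lower beside 7.23% and 3.93%. The higher genes were *LSM4*, *LSM5*, *LSM6*, *SMB1*, *PRP22*, *BRR2*, *PRP4*, *PRP21*, *SNU71* and *BRR1*, and the lower ones were *PRP11* and *PRP24*. They belong to many steps of splicing, from the Sm and Lsm rings to the release of the finished mRNA. Of the 10 higher genes 5 (*LSM4*, *LSM5*, *SMB1*, *PRP22* and *BRR2*) are on chromosome V, which holds 6 of the 78 genes. The same chromosome holds 30 of the 68 genes called higher in this strain over the whole array.

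*LSM5* encodes a subunit shared by the nuclear and the cytoplasmic Lsm ring. Its values in *rpl40b*Δi were 0.27, 1.04 and 1.15 in replicates 1, 2 and 3, a mean of 0.82 ± 0.48 (SD, n = 3; limma adjusted p = 0.000107). *LSM4*, another shared ring subunit, read 0.16, 0.79 and 0.67, a mean of 0.54 ± 0.34 (adjusted p = 0.000234). Both genes were highest in replicates 2 and 3, and replicate 1 lay inside their range of strain means elsewhere, -0.13 to 0.28 for *LSM5* and -0.14 to 0.30 for *LSM4*. *SMB1* encodes the Sm B protein. It read -0.26, 0.99 and 0.78, so that replicate 1 was below wild type while the others were well above it (mean 0.50 ± 0.67, adjusted p = 0.0134).

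*PRP22* encodes the DEAH ATPase that releases spliced mRNA, and *BRR2* the U5 helicase that unwinds U4 from U6. *PRP22* read -0.06, 0.87 and 0.94 (mean 0.58 ± 0.56, adjusted p = 0.00254). *BRR2* read -0.09, 0.72 and 0.58 (mean 0.40 ± 0.43, adjusted p = 0.0141). In both, replicate 1 was near 0 and did not overlap the other replicates. The remaining spliceosome gene of chromosome V, *SNU13*, whose product binds U4 RNA and also box C/D snoRNAs, read 0.28, 0.31 and 0.19 and did not pass (mean 0.26, adjusted p = 0.0702). Unlike the other 5, its replicates lay close together.

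The other genes of chromosome V had the same division between replicates. The 38 measured genes of that chromosome outside the spliceosome set had medians of -0.07, 0.78 and 0.62 in replicates 1, 2 and 3 of *rpl40b*Δi. In replicates 2 and 3, 37 of the 38 were above 0 in each, with quartiles of 0.58 to 0.89 and 0.45 to 0.77, while 13 were above 0 in replicate 1. The genes of all other chromosomes outside the set had medians of -0.03, -0.00 and -0.01. Of those 38 genes 25 passed, all higher, which is 65.8%, against 8.24% of the 825 genes on other chromosomes. With the spliceosome genes included, the chromosome V medians were -0.06, 0.79 and 0.63. No other chromosome median in any of the 39 replicates went beyond -0.17 or 0.16, over the 16 nuclear chromosomes. In the 36 replicates of the other strains the median of chromosome V ran from -0.07 to 0.09. The *RPL40B* gene itself lies on chromosome XI.

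**Figure D2:**
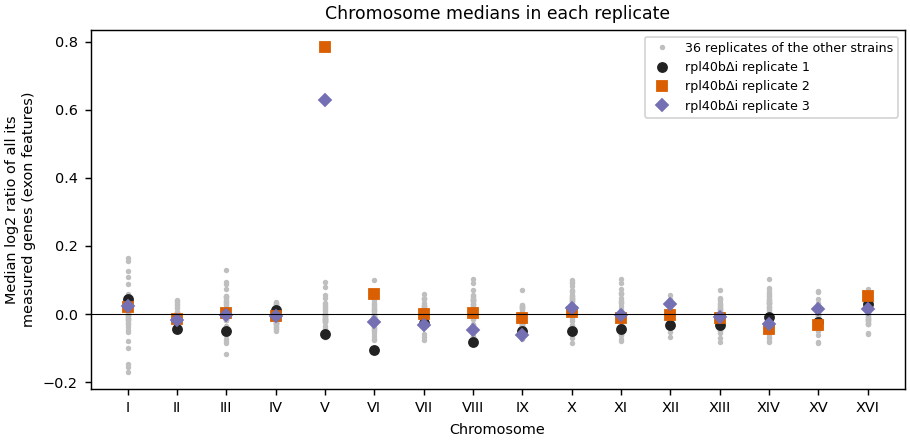
Median log2 ratio, mutant over wild type, of all measured genes of each nuclear chromosome (x axis), 1 point per replicate, with the 36 replicates of the other strains in grey. Chromosome V stands at 0.79 and 0.63 in replicates 2 and 3 of *rpl40b*Δi, at -0.06 in replicate 1, and every other point lies between -0.17 and 0.16.

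The array titles open with a number that was taken here to mark a series of slides, though the labels do not say what it stands for. By that number, replicate 1 of *rpl40b*Δi belonged to another series than replicates 2 and 3. The replicate and the slide series therefore cannot be told apart within the strain. In 16 replicates of other strains on the slide series of replicates 2 and 3, the chromosome V median was between -0.04 and 0.03. DNA copy number was not measured, and its part in these values was not tested. In settings chosen after these values were seen, the fit was run again with each chromosome's median taken off every replicate. *LSM4* then stood at 0.09 (adjusted p = 0.613), *PRP22* at 0.13 (0.403), *SMB1* at 0.05 (0.808) and *BRR2* at -0.05 (0.793), and none of these 4 passed. *LSM5* fell to 0.37 and still passed (adjusted p = 0.0350). With replicate 1 as the only replicate of *rpl40b*Δi, 0 of 78 spliceosome genes passed, beside 1.91% of all genes.

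On the other chromosomes 7 of 72 spliceosome genes passed in *rpl40b*Δi, 5 higher and 2 lower, or 9.72% beside 8.36% of all genes there. *LSM6*, on chromosome IV, was the clearest of them. It encodes a further subunit shared by both Lsm rings, and read 0.42, 0.80 and 0.75, above 0 in every replicate (mean 0.66 ± 0.20, SE 0.076, limma adjusted p = 3.9e-06, a 1.58-fold increase). It read 0.67 with the mutant in Cy3 and 0.65 with the mutant in Cy5, and kept its value with chromosome medians taken off (0.66, adjusted p = 3.46e-06). In the 36 replicates of the other strains *LSM6* ran from -0.35 in *rps14a*Δi replicate 1 to 0.38 in *rps21b*Δi replicate 2, all below replicate 1 of *rpl40b*Δi. With replicate 1 alone it did not pass (adjusted p = 0.0746). The other ring genes stayed closer to 0 in this strain, with *LSM2* at -0.06, *LSM3* at 0.07, *LSM7* at 0.03, the cytoplasmic *LSM1* at -0.01 and the nuclear *LSM8* at 0.24 (adjusted p = 0.131). The Sm genes other than *SMB1* lay between -0.10 (*SMD3*) and 0.06 (*SMD1*).

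*PRP4* encodes a U4/U6 snRNP protein. It read 0.29, 0.42 and 0.36, a tight mean of 0.36 ± 0.06 (limma adjusted p = 0.00689). In this strain it stood at 0.64 with the mutant in Cy3 and 0.07 in Cy5. Its averages over the 17 strains were 0.38 and -0.15, so the orientations differed in the same direction there. *PRP21* and *PRP11* encode partners in the SF3a part of the U2 snRNP and went opposite ways. *PRP21* read 0.22, 0.40 and 0.19 (mean 0.27 ± 0.11, adjusted p = 0.0132), all above wild type. *PRP11* read -0.36, -0.23 and -0.31 (mean -0.30 ± 0.06, adjusted p = 0.00241), all below it. The remaining SF3a gene, *PRP9*, stood at 0.24 ± 0.18 and did not pass (adjusted p = 0.624).

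The other calls in *rpl40b*Δi were small. *SNU71*, a U1 snRNP gene, read 0.04, 0.15 and 0.47 (mean 0.22 ± 0.22, adjusted p = 0.0348), with replicate 3 well above the others. In replicate 3, 2 spots of the array with the mutant in Cy5 averaged 2.0, and the other 3 spots of that array 0.009. With the median of the spots in place of their mean, *SNU71* stood at 0.12 and the call was lost. *BRR1*, a factor of snRNP assembly, read 0.28, 0.18 and 0.18 (mean 0.21 ± 0.06, adjusted p = 0.0497), just inside the threshold. *PRP24*, which anneals U4 with U6 RNA, read -0.13, -0.25 and -0.20 (mean -0.19 ± 0.06, adjusted p = 0.0338). Its mean was -0.37 with the mutant in Cy3 and -0.02 with the mutant in Cy5. Without the genes of chromosome V in the fit, 6 of the 72 remaining spliceosome genes passed, all but *BRR1* of these 7, beside 7.36% of all genes.

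Leaving out 1 replicate of any strain at a time ended 0 of the *LSM4*, *LSM5*, *LSM6* and *PRP11* calls. The *BRR2*, *PRP22* and *SMB1* calls were lost without replicate 2 of *rpl40b*Δi, at 0.25, 0.44 and 0.26, and without replicate 3, at 0.32, 0.41 and 0.37. Without replicate 1 the means of these 3 genes were 0.65, 0.91 and 0.89. *PRP4* and *SNU71* were lost without replicate 2 (0.33 and 0.25) or replicate 3 (0.36 and 0.094), and *PRP21* without replicate 2 (0.20). *PRP24* was lost without any 1 of the 3 (-0.22, -0.17 and -0.19). *BRR1* was lost in 24 of 39 cases, those of *rpl40b*Δi included (0.18, 0.23 and 0.23).

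**Figure D3:**
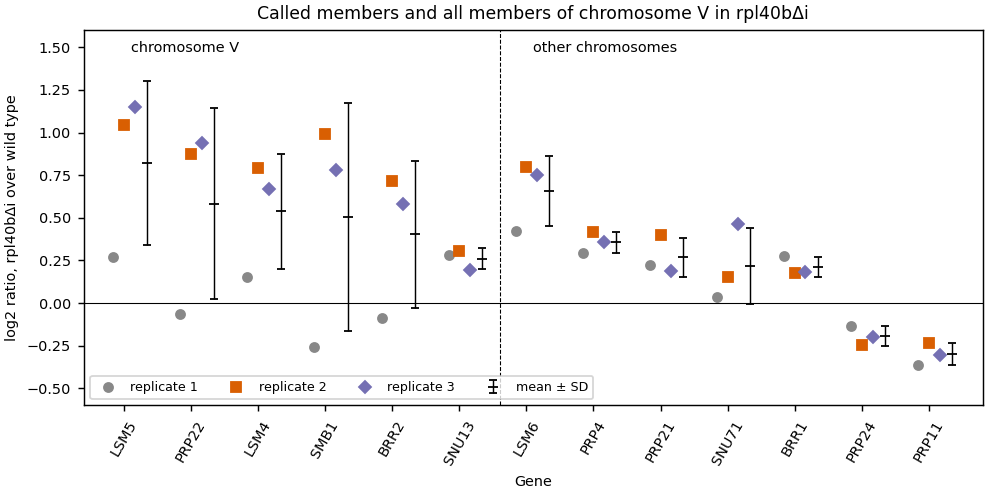
Exon log2 ratio, *rpl40b*Δi over wild type, of the 12 genes that passed and of *SNU13*, with 1 symbol per replicate and bars for the mean ± SD (n = 3). Left of the dashed line are the 6 genes of chromosome V, where replicate 1 lies apart from replicates 2 and 3 in all but *SNU13*; to the right, *LSM6* reads 0.42, 0.80 and 0.75.

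Genes that mark mating type also differed from wild type in *rpl40b*Δi, with *MFA2* at -3.32, -4.65 and -3.76 and *MF(ALPHA)1* at 1.16, 6.59 and 5.13. Of 2 measured marker genes of **a** cells, *MFA1* and *MFA2*, 2 passed lower. Of 4 measured marker genes of alpha cells 3 passed higher, *MATALPHA1*, *MF(ALPHA)1* and *STE3*. In the same strain 11.2% of all genes passed. *MFA2* was below -3 in every replicate of 6 further strains, where 0 spliceosome genes passed beside 0.549% of all genes. The part of mating type in the *rpl40b*Δi values was not tested.

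Outside *rpl40b*Δi, *LSM3* passed in *rpl34a*Δi and *MSL5* in *rps9b*Δi. *LSM3*, a shared Lsm ring subunit, read 0.45, 0.28 and 0.24, all above wild type (mean 0.32 ± 0.11, limma adjusted p = 0.0349). It was the only one of 78 members to pass in that strain, beside 2.34% of all genes, and the call was lost on leaving out any 1 of its replicates. *MFA2* in the same replicates stood at 0.72, -4.38 and -4.01, and its part was not tested. *MSL5* encodes the branchpoint binding protein. It read 0.38, 0.04 and 0.62 (mean 0.35 ± 0.29, adjusted p = 0.0267), so that replicate 2 was close to wild type. It too was alone among the 78, beside 0.638% of all genes, and was lost without replicate 1 (0.33) or replicate 3 (0.21). Of 20 other settings 9 ended the call of *LSM3* and 7 that of *MSL5*. The partner of *MSL5* at the branchpoint, *MUD2*, had its lowest strain mean in the same strain, at -0.13.

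The spread among the strains themselves was tested with the moderated F statistic. *LSM6* was the only one of 77 spliceosome genes to pass (F = 5.95, limma adjusted p = 0.00766) beside 1.3% of all genes. At an unadjusted p under 0.05 there were 6 members, beside 154 of 923 genes. Without *rpl40b*Δi the F of *LSM6* was 2.03 (adjusted p = 0.453), and 0 members passed. *LSM5* had the widest strain means of the set (SD 0.226) and did not pass (F = 2.90, adjusted p = 0.130). The next widest were *PRP9* (0.219), *LSM6* (0.206), *SAD1* (0.191), *PRP22* (0.171) and *PRP18* (0.166). The narrowest were *MUD1* (0.042) and *MUD2* (0.057), which help U1 and the branchpoint complex bind, *PRP24* (0.059) and *PRP5* (0.061), the ATPase that acts at the joining of U2.

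A wide spread sometimes came from 1 value. *PRP9* reached 0.55 in *rpl2b*Δi from replicates at -0.19, 1.83 and 0.01, and the 1.83 rested on 2 spots of 1 array, the array of the other dye having none. Its lowest mean, -0.48 in *rps9a*Δi, came from -0.10 and -0.87, and neither mean passed (adjusted p = 0.273 and 0.647). *SAD1*, a factor of tri-snRNP assembly, ran from -0.25 in the single replicate of *rpl31a*Δi to 0.40 in *rpl16a*Δi, where its replicates read 0.49 and 0.30. In *rpl40b*Δi it read -0.17, 0.48 and 0.37, again with replicate 1 on the other side of 0, and did not pass (adjusted p = 0.484). *PRP18*, a factor of the second step, was lowest in *rpl40b*Δi with 0.15, -0.50 and -0.61 (mean -0.32, adjusted p = 0.324) and highest in *rps9a*Δi with 0.34 and 0.12.

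The Sm and Lsm genes were set beside the PRP genes and the rest by their medians in each strain. The difference of the medians ran from -0.14 to 0.17, with a median of 0.0172 over the 17 strains. Both ends were strains with 1 replicate. In *rpl31a*Δi the 15 Sm and Lsm genes had a median of 0.13, with 13 above 0, beside -0.04 for the rest and -0.05 for all genes. In *rps23a*Δi their median was -0.11, with 11 below 0, beside 0.04 for the rest and 0.06 for all genes. With 1 replicate, each of these strains borrowed its spread from the rest, so whether a single gene passed there says little about the group. The calls over all strains were 5 higher and 0 lower in 254 tests of Sm and Lsm genes. They were 7 higher and 2 lower in 1071 tests of the rest, and 99 higher and 81 lower in 15979 tests of all genes. Of the 5 Sm and Lsm calls, 3 were the genes of chromosome V in *rpl40b*Δi. The strain means of Lsm genes had a median SD of 0.156, those of Sm genes 0.110 and those of the rest 0.098, and these differences were not tested.

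**Figure D4:**
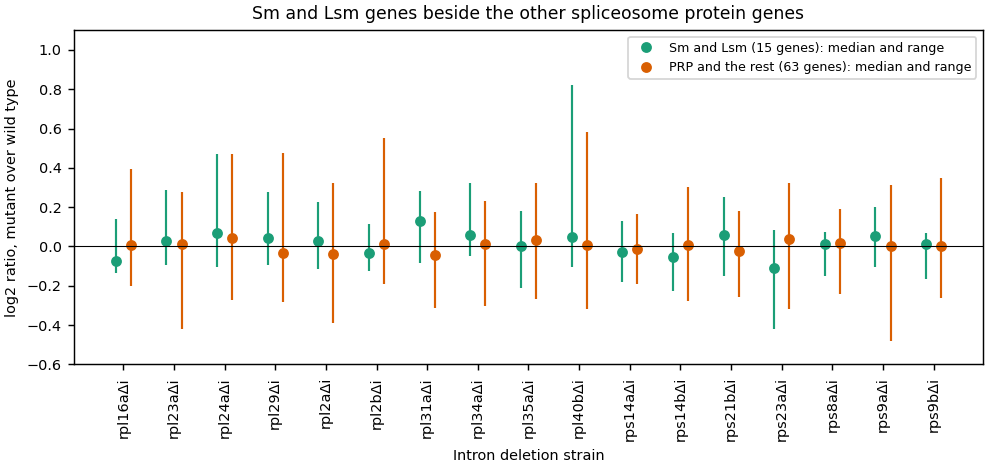
Median (points) and range (lines) of the exon log2 ratio, mutant over wild type, of the 15 Sm and Lsm genes and of the 63 other spliceosome genes in each strain. The medians of both groups lie between -0.11 and 0.13 in every strain, and the Sm and Lsm range reaches highest in *rpl40b*Δi, at 0.82.

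By unit, no gene of the Prp19 complex (7 genes, 119 tests) or of its related factors (9 genes, 153 tests) passed in any strain. Over the whole array 1.13% of tests passed. The lowest of these Prp19 complex and related genes was *PRP19*, the ubiquitin ligase that names the complex. It stood at -0.42 in *rps9a*Δi from replicates at -0.83 and -0.00 (adjusted p = 0.460). Among 9 U1 genes 1 test passed (*SNU71*), among 9 U2 genes 2 (*PRP21* higher and *PRP11* lower), among 14 tri-snRNP genes 2 (*BRR2* and *PRP4*) and among 6 ATPase genes 1 (*PRP22*), all of them in *rpl40b*Δi, where 11.2% of all genes passed. *PRP8*, which forms the core of the active site, stayed between -0.27 and 0.25 and did not pass. *BRR6*, the nuclear envelope gene caught by the symbol rule, was lowest in *rpl23a*Δi at -0.42, from replicates at -0.05, -1.36 and 0.15 (adjusted p = 0.963).

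Several further genes read well away from 0 in 1 strain and did not pass. In *rpl35a*Δi the U1 gene *PRP39* read 0.22, 0.37 and 0.37, all above wild type (mean 0.32 ± 0.08, adjusted p = 0.229). *CWC22*, which helps the catalytic activation by Prp2, read 0.26, 0.36 and 0.34 there (mean 0.32 ± 0.05, adjusted p = 0.221). The SF3b gene *HSH155* read 0.06, 0.67 and 0.20 in the same strain, a far wider spread (mean 0.31 ± 0.32, adjusted p = 0.348). *PRP3*, a U4/U6 snRNP gene, was lowest in *rpl2a*Δi from -0.10 and -0.67 (mean -0.39, adjusted p = 0.133). Among the strains with 1 replicate, *SMD1*, which encodes Sm D1, reached 0.47 in *rpl24a*Δi (adjusted p = 0.178), *LUC7*, a U1 gene, 0.47 in *rpl29*Δi (0.352) and *LSM2* -0.42 in *rps23a*Δi (0.256).

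With every strain given equal weight, the mean over the 17 strains differed from 0 for 5 of 77 spliceosome genes, 3 higher and 2 lower. That was beside 10.9% of all genes (4.98% higher and 5.96% lower). At an unadjusted p under 0.05 there were 17 members, beside 254 of 923 genes. The paper describes the wild type reference as common to the mutants. A trait of that reference would enter the ratios of every strain, while the test treats the replicates as independent. Its part in these means was not tested. *PRP4* stood at 0.12 (SE 0.026, limma adjusted p = 0.00278), above 0 in 15 of 17 strains, with strain means from -0.04 to 0.36. *CUS2*, which helps U2 RNA fold during assembly, stood at 0.11 (SE 0.029, adjusted p = 0.0118), above 0 in 14. *PRP21* was at 0.06 (SE 0.021, adjusted p = 0.0490), above 0 in 15. *CWC27*, a cyclophilin of the activated spliceosome, stood at -0.08 (SE 0.019, adjusted p = 0.00512), above 0 in 3. *RSE1*, an SF3b subunit of the U2 snRNP, was at -0.07 (SE 0.024, adjusted p = 0.0438), above 0 in 1.

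For 2 of the 5 the orientations of the dyes gave opposite signs. *PRP4* averaged 0.38 with the mutant in Cy3 and -0.15 with the mutant in Cy5, and *CUS2* 0.34 and -0.14. Every strain held both orientations equally by number of arrays, but a missing value can leave a replicate with 1 orientation. With at least 3 spots required, *PRP4* stood at 0.12 (limma adjusted p = 0.0541) and *CUS2* at 0.086 (0.166), and neither passed. *PRP21* averaged 0.09 and 0.04, *CWC27* -0.13 and -0.03, and *RSE1* -0.07 in both. With the slide series as a block all 5 calls were lost, at 0.06 for *PRP4*, 0.08 for *CUS2*, 0.07 for *PRP21*, -0.07 for *CWC27* and -0.0061 for *RSE1* (adjusted p from 0.112 to 0.905), and 6 other members passed. Leaving out 1 replicate at a time ended the call of *PRP21* in 29 of 39 fits and that of *RSE1* in 24, and that of the other 3 genes in 0. The other genes at the ends of the range did not pass. *LSM5* stood at 0.11 (adjusted p = 0.0738), *SAD1* at 0.11 (0.187), *PRP19* at -0.12 (0.139) and *PRP18* at -0.08 (0.382).

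Splicing of the spliceosome genes' own introns was read as the intron accumulation index, the intron value minus the exon value of the gene in each replicate. A positive index means more intron relative to exon in the mutant than in wild type. *LSM7* and *SMD2* passed in *rps9a*Δi, at 1.46 and -1.91 (limma adjusted p = 0.00108 and 0.00432, n = 1 each), beside 3.94% of all genes with an index in that strain. Each rested on 1 measured intron spot of 24 printed, *LSM7* in replicate 2 and *SMD2* in replicate 1, both with the mutant in Cy5. In that strain *LSM2* had 1 such spot too (index 0.13) and *MUD1* had 0. Over all strains 2 of 67 tests passed, beside 0.753% of 3851. At most 72.22% (*LSM2*) and at least 44.23% (*MUD1*) of the intron spots of a gene were measured.

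In the other strains no index of these 4 genes passed. *LSM7*, a shared Lsm ring subunit, stayed between -0.26 (*rpl24a*Δi) and 0.27 (*rpl35a*Δi). *SMD2*, which encodes the Sm D2 protein, ran from -0.39 in *rpl2a*Δi to 0.79 in *rps14b*Δi. In *rps14b*Δi its replicates read 1.27, 0.55 and 0.54, all above 0 (mean 0.79 ± 0.42, adjusted p = 0.150). In *rps14a*Δi, the strain of the paralogous gene, they read 1.81, 0.18 and -0.04, so that 1 replicate made the mean (0.65 ± 1.01, adjusted p = 0.241). Intron spots of *SMD2* with a value were 36.11% and 25% of those printed in these strains.

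*LSM2* was lowest in *rpl2a*Δi, at -0.46 and -1.05 (mean -0.76 ± 0.42, adjusted p = 0.205), and did not exceed 0.20 elsewhere. *MUD1*, a U1 snRNP gene, ran from -0.52 in *rpl16a*Δi (-0.16 and -0.88) to 0.72 in *rps14a*Δi (0.78 and 0.65, 1 replicate having no value, adjusted p = 0.155). In *rps14a*Δi only 5 of the 36 intron spots of *MUD1* had a value (13.89%), on 2 of 6 arrays. Neither the F test nor the mean over strains passed for any of the 3 genes with an index in every strain (10.8% and 4.43% of all genes with an index passed). At an unadjusted p under 0.05 there were 2 and 1 of these 3, beside 39 and 50 of 203 genes.

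**Figure D5:**
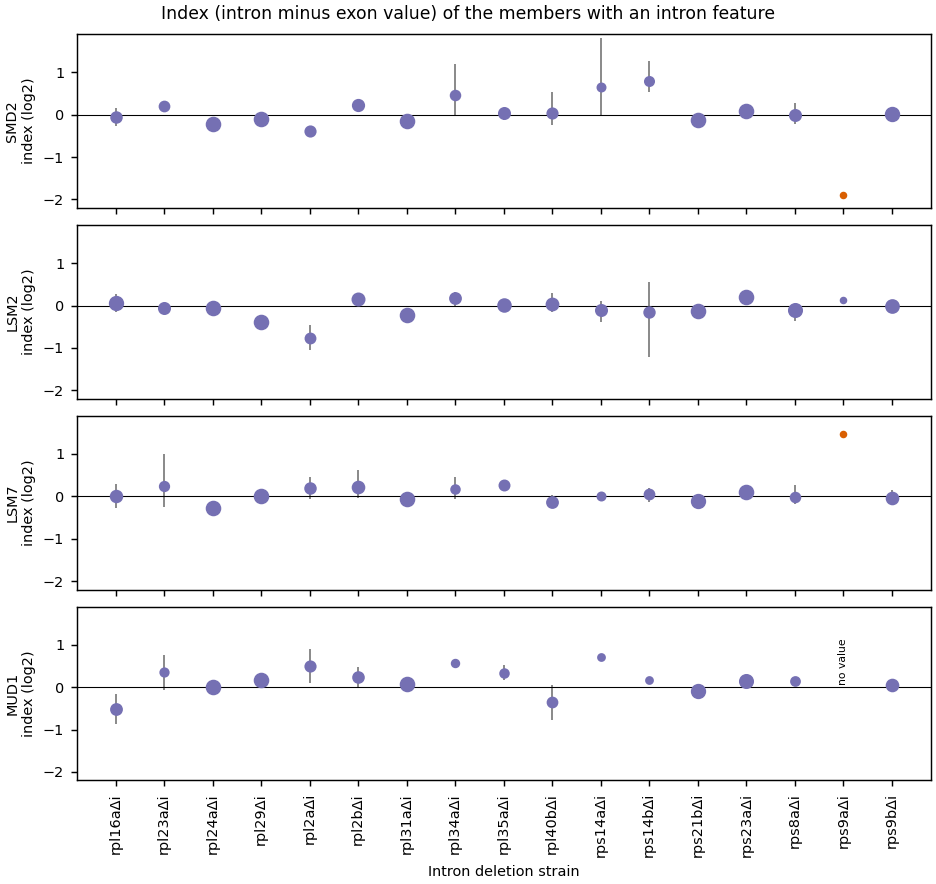
Intron accumulation index (log2, intron minus exon value) of *SMD2*, *LSM2*, *LSM7* and *MUD1* in each strain, with points for the mean, lines for the range of the replicates and larger points for a larger share of measured intron spots. The orange points, *SMD2* at -1.91 and *LSM7* at 1.46 in *rps9a*Δi, passed and rest on 1 spot each.

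Genes of splicing that the symbol rule leaves out were counted the same way. Of 21 such genes 16 were measured, and 1 of 271 tests passed (0.369%, beside 1.13% of all tests on the array). It was *DBR1*, which opens the lariat of the excised intron, at -0.30 in *rpl34a*Δi (SE 0.07, limma adjusted p = 0.0349). At an unadjusted p under 0.05, 5 of the 271 tests were higher and 13 lower, beside 819 and 803 of all 15979. Of 7 further genes of mRNA decay, the pathway of the Lsm1 ring, 5 were measured and 0 of 85 tests passed in the limma fit, with 7 higher and 4 lower at an unadjusted p under 0.05. The spliceosomal RNAs were not among the genes analysed here.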

How the data were processed

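The deposited values are log2 ratios, mutant to wild type, for 9216 spots on each of 78 arrays with both dyes. The authors normalized them with marray and limma in a pipeline built on Goulphar. Background treatment, spot filters and program versions were not given in the sources used here. Intensities were not used. The 6 spots of a feature were averaged, and so were both arrays of a replicate. Exon and intron features were told apart by printing layout, and 8742 spots carried 1 symbol and 474 none. Gene names were matched in a table of yeast genes (78 of 78), and chromosomes were read from the same table.

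With lmFit and eBayes of limma 3.58.1 (R 4.3.3), 1 mean per strain was fitted with 22 residual degrees of freedom on 941 genes, tested against 0, and adjusted by Benjamini and Hochberg over all genes of a strain, threshold 0.05. Strains with a single replicate borrow their spread from the rest. Alternatives covered scaling, spots, dyes, printing place, slide series, blocks, single replicates and chromosomes. Slide series (A to D) were inferred from the number that opens each array title, and replicate 1 of *rpl2a*Δi joined arrays of series B and C. Members, gene lists and the rule for named genes were chosen with earlier results of these data known; named are genes that passed, those with the most extreme means, those with the widest and narrowest spread, and genes with an index, and others (*SNU13*, *BRR6*, *PRP8*, *PRP3*, *PRP39*, *CWC22*, *HSH155*, *SMD1*, *LUC7*, ring and SF3a partners) were named after their values were seen.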

Additional observations from a re-analysis of the deposited data

Results flagged for a closer look

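The exon value of *LSM6*, the Lsm ring subunit, differed among the 17 strains by the F test (limma adjusted p = 0.00766). The strain that stood out was *rpl40b*Δi, at 0.42, 0.80 and 0.75 in its 3 replicates, while the lowest strain mean was -0.29 in the single replicate of *rps23a*Δi. Without *rpl40b*Δi the adjusted p was 0.453.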

How the results depend on the processing

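The counts of members in this section stand without the share of all genes under the same setting. They cannot be read as particular to the spliceosome genes. The 14 exon calls became 50 with the mutant in Cy3 only and 26 in Cy5 only, 99 with slide series C alone, 0 with series B alone, 0 with each strain's own spread and 8 against the mean of the other strains. With settings chosen after seeing the data they became 2 without *rpl40b*Δi, 2 with its replicate 1 alone, 9 with chromosome medians taken off and 8 without chromosome V. Leaving out a replicate gave 6 to 16, with 6 without *rpl40b*Δi replicate 2 and 7 without its replicate 3. The 1 gene that differed among strains became 0 with Cy3 only, Cy5 only, the second printing place, without *rpl40b*Δi and with its replicate 1 alone, and 4 with slide series as a block; leaving out a replicate gave 0 to 5. The 5 means over strains became 48 with Cy3 only, 38 with Cy5 only, 1 with at least 3 spots, 0 and 3 with the first and second printing place, 3 without *rpl40b*Δi, 3 with its replicate 1 alone and 3 with chromosome medians taken off; leaving out a replicate gave 3 to 8.

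The 2 index calls became 1 with Cy3 only, 4 and 0 with the first and second printing place, 4 with slide series as a block, 9 with series C alone and 1 against the junction; leaving out a replicate gave 1 to 3. The F test on the index, 0 genes, gave 2 with arrays scaled and 1 with the first printing place (0 to 1 without a replicate). The mean index, 0 genes, gave 1 with Cy5 only, 2 with slide series as a block and 1 with strains of at least 2 replicates (0 to 0 without a replicate). The cause was not tested in any of these.

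Signs turned for *BRR2* (-0.087), *PRP22* (-0.062) and *SMB1* (-0.26) with *rpl40b*Δi replicate 1 alone, for *BRR2* (-0.049) with chromosome medians taken off, and for the means of *PRP4* (-0.15) and *CUS2* (-0.14) with Cy5 only. Under 4 of 4 alternatives the median Sm and Lsm difference moved by less than the SD of its strain values. No difference at all would have met that rule too, so it does not show that the size was kept. Replicate numbers did not pair the samples: 82 of 192 same-numbered pairs correlated above 0.1, with a median r of 0.059 against -0.027 for other numbers. With the replicate block the means over strains that passed rose from 5 to 9, and the other counts stayed within 1.5 times. Slide series A and D alone could not be fitted, and complete features held no index of the 4 genes. Intensities were not used, so whether dim spots limit a value is unknown.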

Other observations

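Many members read differently by dye orientation. Averaged over strains, 69 of 78 spliceosome genes had opposite signs with the mutant in Cy3 and in Cy5, as did 78.4% of all 941 genes, and the median size of the difference was 0.196 in both sets. A difference above 0.3 was seen in 23 of the 78 and in 291 of all genes. The widest among the members were 2 U1 snRNP genes of opposite sign, *PRP39* at 0.52 with the mutant in Cy3 and -0.37 in Cy5, above 0 in 17 and in 0 of 17 strains, and *LUC7* at -0.36 and 0.41, above 0 in 1 and in 17. Neither gene passed in any strain when both orientations were averaged.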
